A study of Mus musculus with 28 samples.

Results

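The 8 genes described here encode transcription factors of mesenchyme: the homeobox genes Alx4, Prrx1 and Prrx2, the basic helix-loop-helix genes Twist1 and Twist2, and the T-box genes Tbx5, Tbx15 and Tbx18. They were taken by gene symbol from the deposited table, in which all 8 were found among 23015 rows. RNA sequencing covered 14 populations, obtained by cell sorting from the back skin of 5-day-old mice of mixed FVB/N, C57BI/6J and CD1 background, with 2 libraries each and 28 in all. Cells of the K14-H2BGFP line, which also carried Lef1-RFP, gave 8 populations. DP (dermal papilla) was Lef1-RFP-positive with high integrin alpha 9. Neg was a mixture left after gating, and Mc (melanocytes) was Lef1-RFP-positive and CD117-positive. DF (dermal fibroblasts) was Lef1-RFP-positive without CD117 or integrin alpha 9. TAC (matrix progenitors described as expressing Shh) combined dim GFP with Lef1-RFP, Mx (matrix) was dim for GFP, ORS (outer root sheath) bright, and Epi was the GFP-positive part of the epidermal preparation. Papilla cells, gated on Lef1-RFP and high integrin alpha 9 throughout, were divided in Sox2-GFP mice into G/AA-DP (guard and awl/auchene follicles, GFP-positive) and ZZ-DP (zigzag, GFP-negative). In Crabp1-GFP mice the GFP-negative papilla cells formed G-DP (guard follicles) and the GFP-positive ones AA/ZZ-DP (awl/auchene and zigzag). HF-SC (precursors of bulge stem cells) and HF-ORS (the remaining sheath) were both bright for K14-RFP and integrin alpha 6, the first with and the second without Sox9-GFP. Fibroblasts without Lef1-RFP fall outside the DF gate.

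The dermal papilla is a cluster of specialised fibroblasts at the base of the hair follicle that signals to the overlying matrix, and both it and the dermis derive from mesenchyme. PRRX proteins are paired-related homeodomain factors of limb, facial and dermal mesenchyme. TWIST proteins bind E-box sequences as dimers, often with the E proteins encoded by Tcf3, Tcf4 and Tcf12, and are known for keeping mesenchymal cells undifferentiated; Twist2 is also called Dermo1 for its expression in dermis. ALX4 is a homeodomain factor, mutated in Strong's luxoid mice, and its loss in humans affects skull and hair. TBX15 positions the boundary between back and belly coat colour in mice (droopy ear mutants), TBX18 marks early papilla precursors in mice, and TBX5 is best known from forelimb and heart.

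In the mouse build GRCm38.p6 (mm10), RefSeq places Alx4 at chr2:93642434-93681341, Tbx5 at chr5:119796514-119885220, Tbx15 at chr3:99240348-99354260, Twist1 at chr12:33957671-33959831, Twist2 at chr1:91801461-91848034 and Prrx2 at chr2:30845064-30881251, all on the plus strand. Tbx18, at chr9:87702800-87731260, and Prrx1, at chr1:163245119-163315145, are on the minus strand. The deposited rows of Tbx5, Tbx15, Twist2 and Prrx2 start inside these spans, so their values need not cover the whole spans.

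Levels are FPKM (fragments per length of transcript and library total), which are scaled by gene length. Sums per library ran from 285981 to 515224 FPKM, with 10951 to 12497 genes at 1 FPKM or more. The depth behind them is unknown, and no counting error can be given. Malat1, a nuclear RNA made by nearly all cells, was listed at 0 in all 10 papilla libraries and at 1734 to 9696 FPKM in the 18 others, at most 2.98% of a library's summed FPKM. It was the 1 row of the table at 0 in every papilla library and at 1 FPKM or more in every other, so the papilla libraries stood apart in this row, and its part in the results was not tested. An exact 0 can be a failed estimate and is given only as listed at 0. Sox2, the gene of the Sox2-GFP reporter, went against the labels in replicate 1 of that line: it was at 0 and 4.81 FPKM in the libraries labelled G/AA-DP, against 4.87 and 0.089 FPKM in those labelled ZZ-DP. Results on this pair are therefore also given from the replicate 2 libraries alone, an alternative chosen after seeing the data. Crabp1 followed its reporter, at 630 and 421 FPKM in GFP-negative G-DP, against 1866 and 1150 FPKM in GFP-positive AA/ZZ-DP. Nothing in the labels tells if the 2 libraries of a population stem from different animals, so p-values measure the spread between libraries, which may be technical. A change is a difference of log2(FPKM + 1) between population means, with its SE; on this scale the change of a low gene is understated. Changes come from limma, fitted over the 15052 genes that reached 1 FPKM in 2 or more libraries, and a gene was called at a Benjamini-Hochberg adjusted p under 0.05 and a change of at least 1 either way. All 8 genes passed this filter, Tbx5 and Twist2 through papilla and DF libraries alone. Outside those, Twist2 reached 1 FPKM only in TAC replicate 1 (2.11 FPKM).

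All 8 factors were genes of papilla and dermis. In 7 of them, Tbx5 being the exception, each of the 12 papilla and DF libraries was above each of the 16 other libraries, a separation seen in 3.33% of all genes tested. Between 93.6% (Tbx18) and 99.5% (Alx4) of a gene's FPKM summed over all libraries lay in the papilla and DF libraries. The levels fell into 3 tiers. Alx4, Prrx1, Tbx15 and Twist1 had medians of 163.8, 109.7, 86.3 and 73.2 FPKM over the 10 papilla libraries. Prrx2 and Twist2 followed with 23.6 and 8.16 FPKM, and Tbx18 and Tbx5 had 3.59 and 1.35 FPKM. In the 10 libraries of Mx, ORS, Epi, HF-SC and HF-ORS no factor exceeded the 2.94 FPKM of Tbx15 in HF-SC replicate 2.

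**Figure D1:**
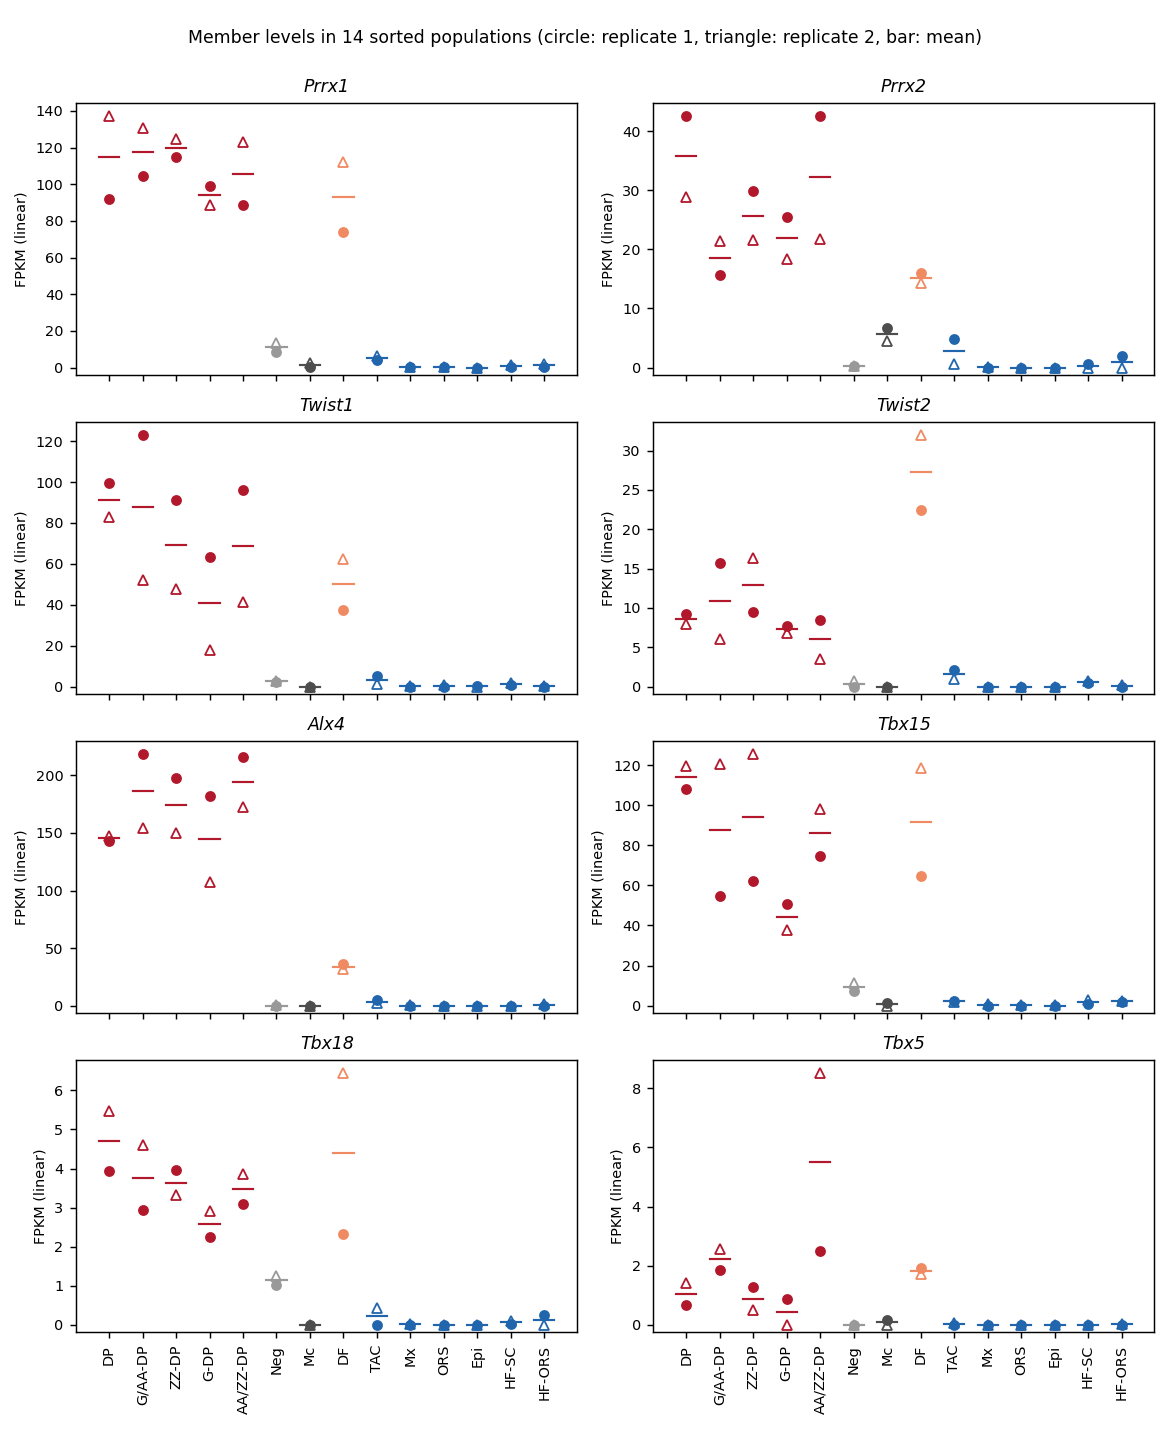
FPKM (linear axes, each with its own scale) of the 8 factors in 14 populations. Circles are replicate 1, triangles replicate 2 and bars their mean; papilla sorts are red, DF orange, Mc and Neg grey, epithelial sorts blue. Alx4 lies between 107.4 and 218.8 FPKM in papilla libraries and between 31.5 and 35.8 FPKM in DF, while Twist2 is highest in DF.

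The order of the population means differed from factor to factor, with overlap of neighbours in most places. For Alx4 it was AA/ZZ-DP, G/AA-DP and ZZ-DP, which overlapped, then DP and G-DP, which overlapped, then DF and TAC, each apart from its neighbours. The Alx4 libraries of G-DP also overlapped those of AA/ZZ-DP, G/AA-DP and ZZ-DP. For Twist2 it was DF, apart from the rest, then ZZ-DP, G/AA-DP and DP, overlapping in turn, then G-DP and AA/ZZ-DP. For Twist1 DP led G/AA-DP, ZZ-DP, AA/ZZ-DP, DF and G-DP, and for Prrx1 ZZ-DP led G/AA-DP, DP, AA/ZZ-DP, G-DP and DF, each overlapping the next. Prrx2 ran from DP through AA/ZZ-DP, ZZ-DP, G-DP and G/AA-DP to DF, again with overlap. Tbx15 ran from DP through ZZ-DP, DF, G/AA-DP and AA/ZZ-DP, overlapping in turn, to G-DP, apart from AA/ZZ-DP, and Neg. Tbx18 ran from DP through DF, G/AA-DP, ZZ-DP and AA/ZZ-DP to G-DP, whose libraries were apart from those of AA/ZZ-DP but not from those of DF, and Neg. Tbx5 ran from AA/ZZ-DP to G/AA-DP and DF, with overlap between neighbours but not between AA/ZZ-DP and DF, then to DP, apart from DF, ZZ-DP and G-DP.

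Dermal mesenchyme of the K14-H2BGFP line (DP and DF) was set against its epithelium (TAC, Mx, ORS and Epi) to place the factors between the compartments. All 8 were called higher in mesenchyme, where 26% of all genes tested were called (14.5% higher, 11.5% lower), and their median change was 4.82 against -0.051 over all genes. Since the genes were chosen as mesenchymal factors with results of these data known, this count is a description. Tbx15 changed most, by 6.09 ± 0.30 (adjusted p = 3e-12 in limma), followed by Prrx1 (5.86 ± 0.26) and Alx4 (5.57 ± 0.22). Tbx5 had the smallest change, 1.24 ± 0.23, and was listed at 0 in both libraries of Mx, ORS and Epi. Tbx5 and Twist2, having passed the filter through papilla and DF libraries alone, had to differ here and in the comparisons of Mc and Neg with DF. Their calls there carry no weight. With a pseudocount of 5 the changes of Tbx18 (0.90) and Tbx5 (0.36) lay under the threshold of 1, and with quantile normalization that of Tbx5 did (0.99).

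Within the epithelium of the K14-H2BGFP line the mean of each of the 8 was highest in TAC. There Prrx1 was at 3.87 and 6.56 FPKM, Alx4 at 4.83 and 2.13 FPKM and Twist1 at 5.02 and 1.10 FPKM. In Mx, sorted without the Lef1-RFP gate, Prrx1 was at 0.33 and 0.36 FPKM, Alx4 at 0 and 0.12 FPKM and Twist1 at 0 and 0.17 FPKM. Markers of mesenchyme were in TAC as well. The 11 papilla markers summed to 113 and 128 FPKM in TAC, 2.05% of their mean in DP. The 9 fibroblast markers summed to 536 and 470 FPKM, 11.3% of their mean in DF. None of either list was at 0 in both TAC libraries. Neither sum set TAC apart from every other epithelial sort, though some single markers did. Corin had a mean of 6.83 FPKM in TAC, against 0.32 FPKM in Mx, 0.18 FPKM in ORS and 0.077 FPKM in Epi. Col1a1 had means of 40.1 FPKM in TAC, 1.75 FPKM in Mx, 1.57 FPKM in ORS and 0.098 FPKM in Epi. Thy1 did not, with means of 9.47 FPKM in TAC, 36.0 FPKM in ORS and 27.8 FPKM in Epi. Papilla markers summed to 47.9 and 28.0 FPKM in Mx, 128 and 134 FPKM in ORS and 128 and 137 FPKM in Epi. Fibroblast markers summed to 498 and 423 FPKM in Mx, 149 and 100 FPKM in ORS and 43.9 and 27.8 FPKM in Epi. In TAC 10 papilla and 9 fibroblast markers had a mean of 1 FPKM or more. In Mx and in ORS 3 and 6 did, and in Epi 2 and 2. The factors' TAC means were between 1.90% (Tbx15) and 18.1% (Twist2) of their DP means. What part cells of other types played in TAC was not tested. HF-SC held Tbx15 at 0.61 and 2.94 FPKM, and HF-ORS at 2.02 and 2.38 FPKM. Fibroblast markers summed to 291 and 388 FPKM in HF-SC and to 263 and 352 FPKM in HF-ORS. These sums were below those of Mx, where Tbx15 was at 0.0515 and 0.69 FPKM. Some single fibroblast markers ran the other way. Col1a1 had means of 78.4 FPKM in HF-SC and 47.0 FPKM in HF-ORS, against 1.75 FPKM in Mx. For Col3a1 the means were 85.7, 62.3 and 4.80 FPKM, and for Lum 15.4, 9.58 and 0.37 FPKM. Other genes of the list thus made up most of the Mx sum. What part fibroblasts played in these Tbx15 levels was not tested.

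The comparison of DP with DF asked which factors separate the inductive cells of the follicle from fibroblasts of the same skin. Alx4 was higher in DP and Twist2 was lower. The other 6 were not called. Of all genes tested, 6.69% were called, 2.44% higher and 4.25% lower in DP. The median change of the 8 factors was 0.34, against 0.0094 over all genes. Malat1 was listed at 0 in both DP libraries, against 5645 and 9696 FPKM in DF.

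Alx4 was at 143 and 147 FPKM in DP, against 35.8 and 31.5 FPKM in DF. The change was 2.08 ± 0.36 (adjusted p = 0.000845 in limma). The subtype sorts, from other mouse lines, held 107.4 to 218.8 FPKM, and all 10 papilla libraries were above both DF libraries, as in 7.06% of all genes tested. The call held without any 1 of the 4 DP and DF libraries and was lost with a pseudocount of 0.1 (adjusted p = 0.136). The 11 papilla markers, all called higher in DP, summed to 5382 and 6365 FPKM in DP, against 793 and 1254 FPKM in DF, so that DF held 17.4% of their DP mean and 23.2% of that of Alx4. Fewer papilla cells and less RNA per cell cannot be told apart in such sorts, and the part of papilla cells in the DF level of Alx4 was not tested. The 3 genes with the population pattern most like that of Alx4, by Pearson correlation of the 14 population means of log2(FPKM + 1) among 11113 genes, were Corin (r = 0.998), a papilla protease, Frem1 (0.996), a basement membrane protein, and Hhip (0.996), which binds hedgehog ligands.

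Twist2 went the other way. It was at 9.24 and 7.90 FPKM in DP, against 22.4 and 32.0 FPKM in DF, a change of -1.54 ± 0.43 (adjusted p = 0.0324 in limma). All 10 papilla libraries, at 3.56 to 16.4 FPKM, were below both DF libraries, as in 6.44% of all genes tested. The call was lost when any 1 of the 4 libraries was left out (adjusted p = 0.0716 to 0.172) and with a pseudocount of 0.1 (0.323), with the direction kept in each case. DF also held RNA of other cells, with 9 of 9 melanocyte markers, 7 of 10 Schwann cell markers (1 was higher), 6 of 10 keratinocyte markers and 6 of 10 pericyte and smooth muscle markers lower in DP. Melanocyte markers summed to 25.9 and 31.6 FPKM in DP, against 1409 and 1416 FPKM in DF. Pericyte and smooth muscle markers summed to 80.9 and 78.9 FPKM in DP, against 751 and 719 FPKM in DF. Schwann cell markers summed to 192 and 172 FPKM in DP, against 249 and 369 FPKM in DF. Twist2 was listed at 0 in both Mc libraries, and was at 0 and 0.65 FPKM in Neg. Neg is a mixture, where pericyte and smooth muscle markers summed to 550.3 and 589 FPKM and Schwann cell markers to 66.6 and 82.9 FPKM. The part of any of these cells in the Twist2 level of DF was not tested. The genes most like Twist2 in pattern were Dkk2 (r = 0.981), a secreted Wnt antagonist, C1qtnf2 (0.981) and Tmem26 (0.969).

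Twist1 was at 99.3 and 82.9 FPKM in DP, against 37.6 and 62.4 FPKM in DF. The libraries did not overlap, but the change of 0.89 ± 0.58 was not called (adjusted p = 0.458 in limma, 95% interval -0.32 to 2.1). Set against each other in the same library, the pair differed between the sorts: Twist1 was 10.7 and 10.5 times as high as Twist2 in DP, and 1.68 and 1.95 times as high in DF. The ratio ran from 2.64 to 11.6 over the 10 papilla libraries, with ZZ-DP replicate 2 (2.91) and G-DP replicate 2 (2.64) below the other 8. Fibroblast markers summed to 2992 FPKM in ZZ-DP replicate 2, with 1223 FPKM in ZZ-DP replicate 1, and melanocyte markers to 760 FPKM in ZZ-DP replicate 2, with 34.3 FPKM in ZZ-DP replicate 1. In G-DP replicate 2 fibroblast markers summed to 983 FPKM and melanocyte markers to 1241 FPKM. Their part in these ratios was not tested. The ratio was examined after the values were seen, and with 2 libraries against 2 an exact permutation test, two-sided, cannot give a p below 0.333. The other 2 pairs computed showed no such separation. Prrx1 was 2.08 to 6.64 times as high as Prrx2 in papilla libraries, and 4.63 and 7.85 times as high in DF. Tbx15 was 13.0 to 38.0 times as high as Tbx18 in papilla libraries, and 27.8 and 18.4 times as high in DF.

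**Figure D2:**
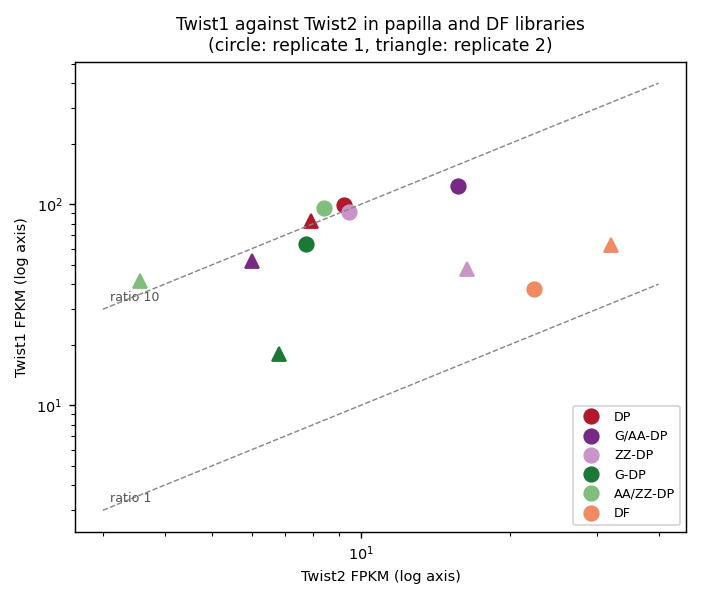
Twist1 FPKM against Twist2 FPKM (both log axes) in the 12 papilla and DF libraries, with dashed lines at equal level and at 10 times. The DF libraries lie at ratios of 1.68 and 1.95, and the papilla libraries at 2.64 to 11.6.

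The stretches upstream of the transcription starts are shown for the Twist pair, whose ratio differed between the DP and DF libraries, and for Prrx1, whose DP and DF libraries overlapped. They are the 250 bases before the RefSeq start in GRCm38.p6 (mm10), 5′ to 3′ on the gene's strand. Capitals mark CCAAT and TAATTA, the core letters of the CCAAT box and of paired-type homeodomain sites, searched on both strands. The table of promoter sequences held 5 of the 8 factors, not Alx4, Tbx5 or Tbx15. The regions are chr12:33957421-33957670 (plus strand) for Twist1, chr1:91801211-91801460 (plus) for Twist2 and chr1:163313651-163313900 (minus) for Prrx1, whose start in the table lies inside the span of the gene given above.
Twist1: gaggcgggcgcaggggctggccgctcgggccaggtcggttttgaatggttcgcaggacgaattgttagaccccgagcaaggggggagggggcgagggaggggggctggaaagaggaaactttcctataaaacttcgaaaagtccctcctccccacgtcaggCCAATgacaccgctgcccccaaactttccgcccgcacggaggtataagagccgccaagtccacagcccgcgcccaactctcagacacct
Twist2: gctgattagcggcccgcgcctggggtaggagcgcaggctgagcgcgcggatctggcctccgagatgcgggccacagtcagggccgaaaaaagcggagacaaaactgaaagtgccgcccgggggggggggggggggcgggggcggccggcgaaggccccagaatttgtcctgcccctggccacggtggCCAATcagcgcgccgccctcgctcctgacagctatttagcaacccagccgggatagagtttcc
Prrx1: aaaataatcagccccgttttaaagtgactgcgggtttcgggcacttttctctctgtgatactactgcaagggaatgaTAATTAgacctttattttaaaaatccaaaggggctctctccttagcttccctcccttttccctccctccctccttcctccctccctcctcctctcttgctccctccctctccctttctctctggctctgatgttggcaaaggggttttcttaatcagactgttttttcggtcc
Twist1, Twist2 and Tbx18 had a CCAAT match, as had 33.8% of 32851 promoters of this length, and Prrx1 alone of the 5 had TAATTA, found in 4.84%. TATAAA was in Twist1 and in 12.4% of all promoters. The Twist windows were rich in G and C, at 62.4% in Twist1 and 68.8% in Twist2, against 47.6% in Prrx1 and a median of 52.4% over all promoters. The E-box CANNTG, the sequence TWIST proteins bind, was in 66.2% of all promoters and in none of the 3 windows shown; of the 5 factors Tbx18 held it. The T-box sequence TCACACCT, in 1.12% of promoters, was in none of the 5. A match describes letters in a window and no site of binding.

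Prrx1 and Tbx15 were high in both sorts. Prrx1 was at 91.8 and 137 FPKM in DP, against 73.9 and 112 FPKM in DF, with overlapping libraries and a change of 0.30 ± 0.42 (95% interval -0.57 to 1.17). Tbx15 was at 108 and 120 FPKM in DP, against 64.8 and 119 FPKM in DF, again overlapping, with a change of 0.37 ± 0.49 (95% interval -0.64 to 1.38). A 2-fold higher level in DP lies within both intervals, so the sorts are not shown to be alike. Tbx18 overlapped as well, at 3.95 and 5.48 FPKM in DP, against 2.33 and 6.45 FPKM in DF. Without DF replicate 1 the change of Tbx15 was -0.061 and that of Tbx18 -0.40; leaving out DP replicate 2 gave -0.010 for Tbx18. Prrx2 was at 42.6 and 28.9 FPKM in DP, against 15.98 and 14.3 FPKM in DF, without overlap. Its change of 1.17 ± 0.52 was not called (adjusted p = 0.226 in limma). Tbx5 was at 0.67 and 1.41 FPKM in DP, against 1.92 and 1.70 FPKM in DF, where 2 low values per sort gave a change of -0.49 ± 0.37 without a call.

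The genes nearest to these factors in pattern included Ebf1 and Ntng1 more than once. For Prrx1 they were Ebf1 (r = 0.993), an early factor of several mesenchymal lineages, Arhgap28 (0.991) and Ntng1 (0.989). For Twist1 they were Hoxc10 (0.992), Ebf1 (0.990) and Pdgfra (0.990), the PDGF receptor found on fibroblasts. For Tbx15 they were Ntng1 (0.992), Adamts2 (0.990) and Map1a (0.989), and for Tbx18 Cacna2d1 (0.994), Tbx15 (0.992) and Ntng1 (0.991). For Prrx2 they included Hey2 (0.988), a Notch target, and Agap1 (0.982). Among the 7 factors without Tbx5 the correlations with one another ran from 0.877 to 0.992. All these values rest on 14 points that share the contrast between mesenchyme and the rest.

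Wider lists placed the factors among their relatives in DP and DF. The first 3 family lists include the 8 factors themselves. Their median changes were -0.29 (T-box), 1.2 (Alx and Prrx relatives), 0.27 (Twist relatives and partners), 0.18 (Snail and Zeb), -0.056 (other mesenchymal factors) and -1.01 (targets and partners), against 0.0094 over all genes. Of 9 T-box genes tested, none was higher in DP and 2 were lower, Tbx2 (0.84 and 0 FPKM in DP, against 6.56 and 2.93 in DF) and Tbx4 (0.46 and 0.16 FPKM in DP, against 2.97 and 2.94 in DF), both named after their values were seen. Of 6 Alx and Prrx relatives 1, Alx4, was higher. Shox2, a limb and heart factor, was at 35.1 and 25.9 FPKM in DP, against 10.7 and 11.3 FPKM in DF, and was not called. Of 11 Twist relatives and partners 1, Twist2, was lower and none was higher. The E protein gene Tcf4 was at 37.1 and 37.6 FPKM in DP, against 47.7 and 107.3 FPKM in DF, and was not called. Shox2 and Tcf4 too were named after their values were seen. Of 5 Snail and Zeb genes, which repress epithelial adhesion genes, Snai2 alone was higher, at 130 and 244 FPKM in DP, against 46.5 and 49.7 FPKM in DF (change 1.87 ± 0.43). Of 16 other mesenchymal factors 4 were higher and 2 lower. Pax1 was at 18.3 and 11.1 FPKM in DP, against 1.35 and 1.43 FPKM in DF. En1 was at 45.5 and 36.8 FPKM in DP, against 8.52 and 12.6 FPKM in DF. Ebf1 was at 430 and 336 FPKM in DP, against 112 and 102 FPKM in DF. Meox2, by contrast, was at 1.55 and 0.87 FPKM in DP, against 9.85 and 23.9 FPKM in DF.

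Among 8 genes known elsewhere as targets or partners of the factors, 1 was higher and 4 were lower in DP. Fgf10, a target of TBX5 in limb buds, was at 57.6 and 124 FPKM in DP, against 3.75 and 17.5 FPKM in DF. Gja5, a connexin gene that TBX5 activates in heart, was at 1.37 and 1.12 FPKM in DP, against 20.3 and 22.5 FPKM in DF. The matrix genes Postn and Tnc were lower in DP too, with changes of -2.50 ± 0.49 and -2.26 ± 0.52. Cdh1, which TWIST1 represses in other cells, was at 6.66 and 3.29 FPKM in DP, against 36.1 and 16.4 FPKM in DF, while keratinocyte markers summed to 76.4 and 115 FPKM in DP, against 955 and 281 FPKM in DF.

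The papilla subtype sorts asked whether the factors differ between follicle types. In the Sox2-GFP line none of the 8 was called by limma between the libraries labelled G/AA-DP and ZZ-DP, and 1, Tbx5, had an unadjusted p under 0.05. Sox2 ran opposite ways in the 2 replicates, as did Sostdc1 (119 and 881 FPKM in G/AA-DP, against 491 and 209 FPKM in ZZ-DP). The papilla markers Alpl, Vcan, Rspo3, Fgf10 and Crabp1 did so too. Corin, Hhip, Fgf7 and Itga9, the remaining papilla markers, were higher in G/AA-DP in both replicates. The lack of calls therefore does not show the follicle types to be alike. From the replicate 2 libraries alone, again 0 of the 8 were called, with changes of 1.27 ± 0.52 for Tbx5 and -1.31 ± 0.53 for Twist2 as the largest. Of all genes tested, 0.00664% were called. Alx4 was at 219 and 155 FPKM in G/AA-DP, against 198 and 150 FPKM in ZZ-DP (change 0.093 ± 0.36, 95% interval -0.65 to 0.84). Prrx1 was at 104 and 130 FPKM in G/AA-DP, against 115 and 124 FPKM in ZZ-DP (95% interval -0.91 to 0.84). Twist1 was at 123 and 52.2 FPKM in G/AA-DP, against 91.3 and 47.7 FPKM in ZZ-DP (95% interval -0.93 to 1.49). For these 3 genes the libraries of a sort differed more from each other than the means of the sorts did. Tbx15 was likewise at 54.7 and 121 FPKM in G/AA-DP, against 62.1 and 126 FPKM in ZZ-DP. Tbx5 was at 1.86 and 2.57 FPKM in G/AA-DP, against 1.28 and 0.48 FPKM in ZZ-DP (change 0.80 ± 0.37, adjusted p = 1 in limma).

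In the Crabp1-GFP line the median change of the 8 factors between G-DP and AA/ZZ-DP was -0.47, against -0.064 over all genes. Of the 8 factors 1 was called, against 0.505% of all genes tested (0.093% as lower). This was Tbx5, at 0.87 and 0 FPKM in G-DP, against 2.49 and 8.53 FPKM in AA/ZZ-DP (change -2.08 ± 0.37, adjusted p = 0.0109 in limma). The SE pools all 14 populations, and Tbx5 was listed at 0 in both libraries of Epi, ORS, Mx, Neg and HF-SC. In a fit of this mouse line alone the SE was 0.69. The call rested on few and low values. It was lost without G-DP replicate 2 (adjusted p = 0.202) or AA/ZZ-DP replicate 2 (0.289), with a pseudocount of 0.1 (0.0754) or 5 (change -0.89), and in a fit of this mouse line alone (0.845). Tbx15 was at 50.9 and 37.9 FPKM in G-DP, against 74.8 and 97.9 FPKM in AA/ZZ-DP. The libraries did not overlap, yet the change of -0.95 ± 0.49 was not called (adjusted p = 0.641 in limma). Twist1 was at 63.5 and 18.0 FPKM in G-DP, against 95.9 and 41.3 FPKM in AA/ZZ-DP, and its change of -0.87 turned to 0.0093 without G-DP replicate 2. Alx4 was at 182 and 107.4 FPKM in G-DP, against 216 and 173 FPKM in AA/ZZ-DP (95% interval of the change -1.21 to 0.28).

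The difference between the Sox2-GFP and Crabp1-GFP contrasts was called for Tbx5 (2.87 ± 0.53, adjusted p = 0.0225 in limma) and for none of the other 7, against 0.133% of all genes tested (0.0133% higher, 0.12% lower). In a fit of these lines alone the SE of the Tbx5 difference was 0.82. It rests on the labels of the Sox2-GFP line, and from its replicate 2 libraries alone was 3.35 ± 0.64 (adjusted p = 0.0146 in limma). The call was lost without replicate 2 of any of the 4 sorts (adjusted p = 0.116 to 0.227), with a pseudocount of 0.1 (0.208) and in a fit of these lines alone (1).

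The genes most like Tbx5 in pattern were Amelx (r = 0.941), known from tooth enamel, Rgs7 (0.920), a regulator of G-protein signalling, and Col9a2 (0.904), a collagen of cartilage, lower likenesses than those of the other factors.

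Other markers moved with the Crabp1-GFP contrast. Melanocyte markers summed to 1217 and 1241 FPKM in G-DP, against 58.2 and 73.1 FPKM in AA/ZZ-DP, with 6 of 9 called higher and none at 0 in both G-DP libraries. Papilla markers summed to 3056 and 2999 FPKM in G-DP, against 5760 and 5847 FPKM in AA/ZZ-DP, with none of 11 called. This list includes Crabp1, whose reporter divided these sorts, so part of the difference in the sum follows from the gate. Crabp1 alone was at 630 and 421 FPKM in G-DP, against 1866 and 1150 FPKM in AA/ZZ-DP. The part of the melanocyte and papilla markers in the changes of the factors was not tested. Tbx5 itself was at 0.17 and 0 FPKM in Mc. Prrx2 overlapped between the sorts, at 25.4 and 18.4 FPKM in G-DP, against 42.6 and 21.7 FPKM in AA/ZZ-DP, as did Twist2 at 7.72 and 6.83 FPKM in G-DP, against 8.42 and 3.56 FPKM in AA/ZZ-DP.

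**Figure D3:**
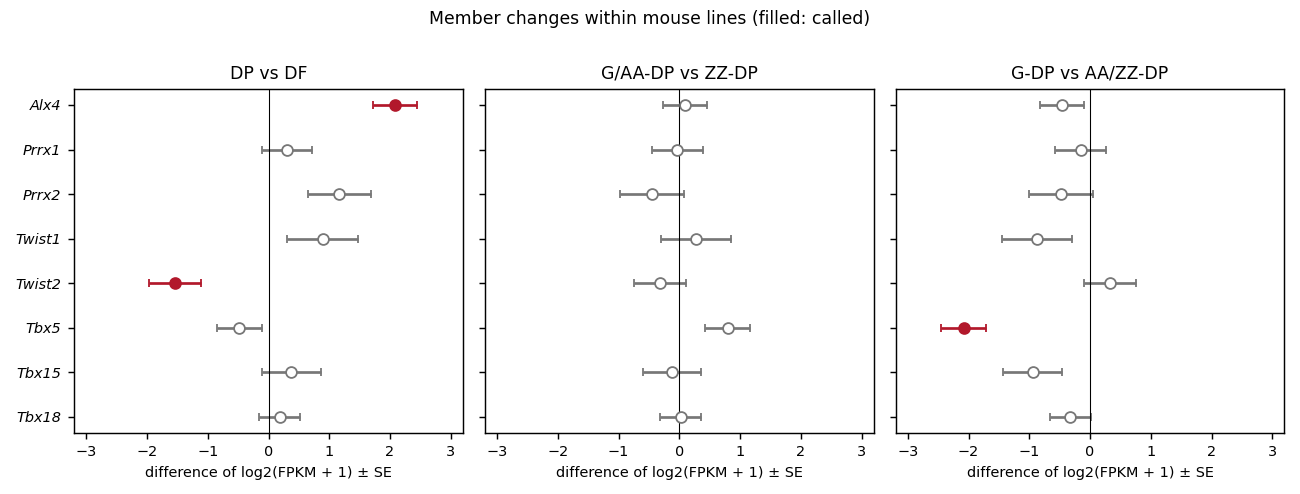
Difference of log2(FPKM + 1) with its SE (bars) for the 8 factors in 3 comparisons, each within 1 mouse line; filled red points were called. Alx4 and Twist2 lie on opposite sides of 0 between DP and DF, and Tbx5 is below 0 between G-DP and AA/ZZ-DP.

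Melanocytes and the marker-negative mixture were set against DF, since Mc passed the same Lef1-RFP gate and Neg did not. In Mc 7 of 8 factors were lower than in DF, where 18.2% of all genes tested were called (6.67% higher, 11.5% lower). Twist1, Twist2 and Tbx18 were listed at 0 in both Mc libraries. Alx4 was at 0.093 and 0.020 FPKM in Mc, against 35.8 and 31.5 FPKM in DF (change -5.03 ± 0.36). Prrx2 had the highest mean of the 8 in Mc. It was at 6.72 and 4.57 FPKM in Mc, against 15.98 and 14.3 FPKM in DF, 37.3% of the DF mean, while Prrx1 in Mc was at 1.45% of its DF mean. The Prrx2 change of -1.30 ± 0.52 was not called (adjusted p = 0.0936 in limma). Leaving out DF replicate 1 ended the Tbx5 call between Mc and DF (adjusted p = 0.0612), as did leaving out Mc replicate 2 (0.0839) and refitting with a pseudocount of 5 and with quantile normalization, and that of Tbx18 with a pseudocount of 5. Fibroblast markers in Mc summed to 1.22% of their DF mean and papilla markers to 5.45%. Most of the papilla sum in Mc, 47.9 and 63.6 FPKM, was 1 gene, Itga9. It was at 28.6 and 47.0 FPKM in Mc, against 9.37 and 29.8 FPKM in DF.

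Neg differed from DF in every factor. All 8 were lower in Neg than in DF, where 8.61% of all genes tested were called (3.39% higher, 5.22% lower). Prrx1 was at 8.66 and 13.2 FPKM in Neg, against 73.9 and 112 FPKM in DF (change -2.97 ± 0.42). Tbx15 was at 7.36 and 11.5 FPKM in Neg, against 64.8 and 119 FPKM in DF. Tbx18 was at 1.02 and 1.26 FPKM in Neg, against 2.33 and 6.45 FPKM in DF. By mean level Neg held 11.8% of the DF level of Prrx1, 10.3% of that of Tbx15 and 25.9% of that of Tbx18, but 0.311% of that of Alx4, 1.2% of that of Twist2 and 1.80% of that of Prrx2. Fibroblast markers in Neg summed to 12.4% of their DF mean and papilla markers to 6.73%. Neg held other cells, with 8 of 9 endothelial, 7 of 10 keratinocyte and 5 of 7 leukocyte markers higher than in DF. Endothelial markers summed to 178 and 272 FPKM in Neg, against 8.32 and 6.29 FPKM in DF. Keratinocyte markers summed to 2934 and 2141 FPKM in Neg, against 955 and 281 FPKM in DF. Pericyte and smooth muscle markers summed to 550.3 and 589 FPKM in Neg, against 751 and 719 FPKM in DF, with 2 of 10 called lower and none higher. The part of these cells in the levels of the factors was not tested. Whether the factors differ from each other in this share was not tested. The Tbx18 call was lost without DF replicate 2 (adjusted p = 0.435) or either Neg library (0.181 and 0.0762). The Tbx5 call was lost without any 1 of the 4 libraries (0.058 to 0.094). Both were also lost with a pseudocount of 5 and with quantile normalization, and that of Tbx18 with a pseudocount of 0.1.

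Other T-box and Alx genes were found in populations where the 8 factors were low. Mc held Tbx2 (16.8 and 8.59 FPKM), Tbx3 (15.0 and 18.2 FPKM), both known to act against senescence in melanoma cells, and Alx1 (12.6 and 13.3 FPKM), a craniofacial homeobox gene. In DF these were at 6.56 and 2.93 FPKM, 4.40 and 8.04 FPKM, and 0.13 and 1.43 FPKM. All 3 were called higher in Mc, with changes of 1.26 ± 0.44, 1.33 ± 0.37 and 3.07 ± 0.30. Alx4, by contrast, was lower in Mc. Tbx1, known from the pharynx and from hair follicle stem cells, had its highest mean in ORS, at 50.4 and 34.7 FPKM. It was at 30.1 and 9.35 FPKM in Neg, 16.4 and 5.18 FPKM in HF-SC and 10.9 and 2.27 FPKM in Mx. In HF-ORS, the remaining sheath, it was at 1.67 and 0.59 FPKM. It was lower in dermal mesenchyme than in epithelium (change -1.80 ± 0.41), the single T-box gene of 9 to be so.

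**Figure D4:**
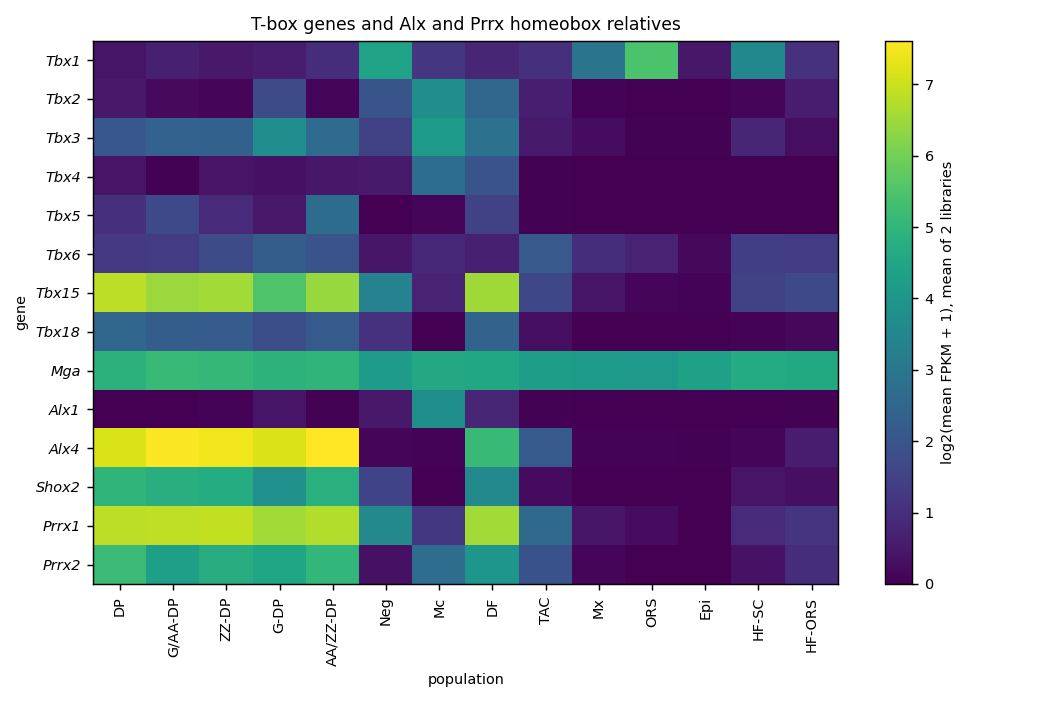
log2(mean FPKM + 1) of 14 T-box, Alx, Prrx and related genes (rows) in 14 populations (columns), each the mean of 2 libraries; yellow is high. Alx4, Prrx1 and Tbx15 are high in papilla sorts and DF, Tbx1 in ORS, and Alx1, Tbx2 and Tbx3 in Mc.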

How the data were processed

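RNA was measured in 28 libraries of 14 sorted populations. Per the labels' protocols, RNA with an integrity number of at least 8.8 was used, and 6 ng of it was amplified as cDNA, of which 100 ng went into each library; amplifying so little RNA makes low genes less reliable. FPKM values came as 1 table deposited by the authors; TopHat2 2.0.3, Bowtie2, Cufflinks 2.1.1 and mm10 are named per the submitters' processing notes, and the annotation, filters, strand setting and scaling between libraries were not given in the sources used here. Columns were matched to samples by name. Of 23235 rows, 220 identical ones were dropped. FPKM were used as deposited. Low values showed no common step between libraries, so read counts were not recovered.

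From these FPKM, log2(FPKM + 1) was fitted with limma 3.58.1 in R 4.3.3, with 1 mean per population over all 28 libraries and a trended empirical Bayes prior (14 residual and 5.72 prior degrees of freedom), and tested on simulated data. Benjamini-Hochberg adjustment ran over 15052 genes in each of 7 comparisons. Alternatives were pseudocounts of 0.1 and 5, no filter or one at 5 FPKM, quantile normalization, fits within a mouse line, a replicate block, and leaving out single libraries; the fit on replicate 2 of the Sox2-GFP line alone was added after seeing the data. Sequences are from RefSeq (GRCm38.p6). Without strand, RNA of genes that GENCODE annotates on the other strand at Alx4 (Ext2), Tbx15, Tbx18, Twist2 and Prrx1 cannot be separated.

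Named genes were all 8 factors, up to 4 called genes of each list with the largest changes whose mean reached 5 FPKM where they were higher, and the 3 genes most like each factor. Others, such as Shox2 and Tcf4 between DP and DF, were named after their values were seen. The factors and lists were chosen with earlier results of these data known. Some genes that this rule names are not reported here.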

Additional observations from a re-analysis of the deposited data

Results flagged for a closer look

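For Tbx5 a difference between the papilla subtype contrasts was called. The contrast of G/AA-DP with ZZ-DP minus that of G-DP with AA/ZZ-DP, both with guard papillae on the first side, was 2.87 ± 0.53 on the log2(FPKM + 1) scale (adjusted p = 0.0225 in limma), where 0.133% of all genes tested were called. Fitted on these mouse lines alone, the SE of this difference was 0.82. The values behind it were 1.86 and 2.57 FPKM in libraries labelled G/AA-DP, against 1.28 and 0.48 FPKM in libraries labelled ZZ-DP, and 0.87 and 0 FPKM in G-DP, against 2.49 and 8.53 FPKM in AA/ZZ-DP. The call was lost without replicate 2 of ZZ-DP (adjusted p = 0.227), G/AA-DP (0.116), G-DP (0.146) or AA/ZZ-DP (0.148), with a pseudocount of 0.1 (0.208) and in a fit of these mouse lines alone (1). Sox2 was at 0 and 4.81 FPKM in G/AA-DP, against 4.87 and 0.089 FPKM in ZZ-DP, so replicate 1 goes against its labels, and with the replicate 2 libraries of that line alone the difference was 3.35 ± 0.64 (adjusted p = 0.0146 in limma). No other of the 8 factors was called in this difference.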

How the results depend on the processing

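Of 721 values of the 8 factors under alternatives, 656 kept direction and side of the threshold, 38 lost a call, 1 gained one and 26 changed sign, all of these without a call. With a pseudocount of 0.1 no factor was called between DP and DF, between G-DP and AA/ZZ-DP or in the difference of the subtype contrasts (0 each), and 28 of all genes were called between G-DP and AA/ZZ-DP. With a pseudocount of 5, 0 factors were called between G-DP and AA/ZZ-DP, and the counts over all genes were 668 for DP with DF, 1907 for mesenchyme with epithelium, 1695 for Mc with DF and 840 for Neg with DF. A filter at 5 FPKM removed Tbx5 and left 0 calls in both. Without a filter 4 genes were called between G/AA-DP and ZZ-DP. Fits within a mouse line called 2 genes between G/AA-DP and ZZ-DP, 2 between G-DP and AA/ZZ-DP (0 factors) and 1 in the difference (0 factors). Quantile normalization gave -0.020 for the difference of Prrx2, against 0.028 without it. With the Sox2-GFP line represented by its replicate 2 libraries alone, chosen after seeing the data, 7 of all genes were called between G/AA-DP and ZZ-DP and 97 in the difference, and the Prrx1 change between G/AA-DP and ZZ-DP was 0.067. The cause was not tested.

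Leaving out 1 library at a time gave these ranges for calls among the factors and all genes: 1 and 539 to 1023 for DP with DF, 0 and 1 to 15 for G/AA-DP with ZZ-DP, 0 to 1 and 13 to 282 for G-DP with AA/ZZ-DP, 8 and 3471 to 4342 for mesenchyme with epithelium, 6 to 7 and 2011 to 2301 for Mc with DF, 6 to 7 and 577 to 1433 for Neg with DF, and 0 to 1 and 13 to 76 for the difference. A lone remaining library was taken to vary like the other populations. Changes that crossed 0 ran, for DP with DF, from -0.061 to 0.80 (Tbx15) and -0.40 to 0.76 (Tbx18). For G/AA-DP with ZZ-DP they ran from -0.16 to 0.34 (Alx4), -0.19 to 0.12 (Prrx1), -0.68 to 0.44 (Tbx15), -0.24 to 0.28 (Tbx18), -0.33 to 0.89 (Twist1) and -0.94 to 0.31 (Twist2). For G-DP with AA/ZZ-DP they ran from -0.39 to 0.080 (Prrx1), -1.75 to 0.0093 (Twist1) and -0.19 to 0.86 (Twist2), and for the difference from -0.11 to 0.35 (Prrx1) and -0.44 to 0.50 (Prrx2).

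The labels do not say that replicate numbers pair samples. Same-numbered libraries deviated together with correlations of 0.057 to 0.275 within the K14-H2BGFP line (27 of 28 pairs over 0.1), 0.285 in the Sox2-GFP line, 0.283 in the Crabp1-GFP line, 0.071 in the line of HF-SC and HF-ORS, and 0.038 to 0.291 between lines, so that not every pair exceeded 0.1 and the numbers were not taken as pairing. Twist1 was higher in replicate 1 in 5 of 5 papilla sorts, a hint from the data that the numbers may carry a shared difference. With a replicate block 32 genes and 0 factors were called in the difference (Tbx5 adjusted p = 0.0532 in limma), and Prrx2 was called between Mc and DF (adjusted p = 0.0337). FPKM give no depth, so low levels such as those of Tbx5 have unknown counting error.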
